A study of Mus musculus with 7 samples.

Results

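Cd209a-positive dendritic cells were taken from single-cell RNA libraries of the inflamed mouse central nervous system by their own transcripts. The cells came from B6 mice immunized with the MOG35-55 peptide, which induces experimental autoimmune encephalomyelitis (EAE), an autoimmune disease of the brain and spinal cord used as a model of multiple sclerosis, and were collected at the peak of disease. The comparison sets the genotype Lag3Floxed, described in the labels as LAG3 deficient and called Lag3KO here, against Lag3wt (WT). Cells positive for CD45, the surface protein of all leukocytes, were enriched with beads, giving 1 Lag3KO_CD45 and 2 WT_CD45 libraries. The labels give 5 age- and sex-matched mice per group with like disease scores, but not which mice entered which library, nor the Cre line, the deleted part or the age. A barcode counted as a member when it held at least 2 Cd209a and 20 H2-Ab1 UMIs (unique molecular identifiers, each a counted mRNA molecule), at most 1 Fscn1 UMI, no Xcr1 or Clec9a UMI, at most 1 UMI of Cd3d, Cd3e and Cd3g together, and at most 30 UMIs of C1qa, C1qb and C1qc per 10000. This rule chose 201 of the 7076 kept barcodes of the CD45 libraries and of the 13632 kept barcodes of the series: 68 of 2517 in Lag3KO_CD45, 93 of 2322 in WT_CD45 1 and 40 of 2237 in the library labelled WT_CD45 2.

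Dendritic cells take up antigen and present it to T cells. Conventional dendritic cells fall into cDC1, which carry XCR1 and CLEC9A and are known for presenting antigen to CD8 T cells, and cDC2, which present mainly on MHC class II to CD4 T cells. In inflamed tissue, monocytes can also take on MHC class II and some dendritic cell genes. CD209a is a C-type lectin, a receptor that binds sugars on microbes and on other cells, and belongs to the mouse family related to human DC-SIGN. In EAE, cells with MHC class II in the central nervous system show myelin peptides to the T cells that drive the disease, and LAG3 is an inhibitory receptor of T cells whose ligand is MHC class II.

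Levels are counts per 1000000 UMIs of the summed cells of a class (CPM). Wherever 2 WT_CD45 values are given, WT_CD45 1 comes first and the library labelled WT_CD45 2 second, and a range given for another class is over its 3 libraries. That library held 4 Lag3 UMIs among all its barcodes, near the 2 of Lag3KO_CD45 and far below the 304 of WT_CD45 1, so its Lag3 level goes against its label, and each direction below rests on the label. The members had a median of 5444 UMIs and 1653 genes in Lag3KO_CD45, 6086 and 1827 in WT_CD45 1, and 5902.5 and 1814 in the library labelled WT_CD45 2. Their UMIs summed to 388326, 625436 and 244081 in the same libraries. Over these libraries the comparison classes held 74 cDC1, 58 Fscn1 and Ccr7 positive dendritic cells and 116 B cells. They also held 816 monocytes, 533 C1q macrophages and 805 T cells. The 3 libraries shared 7 to 11 barcode sequences in pairs, of which 1 belonged to a member. Of the members, 2 resembled simulated doublets (2 cells in 1 droplet), both in Lag3KO_CD45, and 1 barcode of WT_CD45 1 held 1076 S100a8 UMIs, where the next highest member of that library held 2. For the genes named in the genotype comparison of the members, calls lost without these 3 barcodes are given beside the result.

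Cd209a has 6 relatives in the mouse genome, Cd209b to Cd209g, all on chromosome 8. Cd209a itself, which chose the cells, was found at 2176 CPM in Lag3KO_CD45 against 1377 and 1307 CPM in WT_CD45. Cd209d followed with 180.3 CPM in Lag3KO_CD45 against 83.1 and 28.7 CPM in WT_CD45, and Cd209e with 100.4 CPM in Lag3KO_CD45 against 36.8 and 4.10 CPM in WT_CD45. Cd209b and Cd209c stayed at 4.10 to 12.9 CPM in each library, and Cd209f and Cd209g had no UMI in any member. Outside the members, Cd209d reached at most 4.61 CPM and Cd209e at most 0.824 CPM in any of the 6 comparison classes. The promoters of the 3 members of the family with the highest levels are shown because these genes were found together. They run from 250 bases before to 50 after the RefSeq start, 5′ to 3′ on the gene's strand, at chr8:3748935-3749234, chr8:3878450-3878749 and chr8:3854237-3854536 of GRCm38.p6, all on the minus strand.
Cd209a: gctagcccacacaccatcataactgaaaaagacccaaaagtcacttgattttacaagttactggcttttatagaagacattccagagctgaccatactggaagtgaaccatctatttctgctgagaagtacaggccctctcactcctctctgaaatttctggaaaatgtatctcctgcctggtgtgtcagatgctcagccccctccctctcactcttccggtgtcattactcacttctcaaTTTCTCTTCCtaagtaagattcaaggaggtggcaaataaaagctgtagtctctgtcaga
Cd209d: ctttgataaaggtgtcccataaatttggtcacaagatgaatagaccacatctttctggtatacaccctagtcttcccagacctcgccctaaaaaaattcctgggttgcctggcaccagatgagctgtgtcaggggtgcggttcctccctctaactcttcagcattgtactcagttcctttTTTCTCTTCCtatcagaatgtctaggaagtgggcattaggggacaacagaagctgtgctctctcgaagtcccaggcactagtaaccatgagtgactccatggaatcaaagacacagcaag
Cd209e: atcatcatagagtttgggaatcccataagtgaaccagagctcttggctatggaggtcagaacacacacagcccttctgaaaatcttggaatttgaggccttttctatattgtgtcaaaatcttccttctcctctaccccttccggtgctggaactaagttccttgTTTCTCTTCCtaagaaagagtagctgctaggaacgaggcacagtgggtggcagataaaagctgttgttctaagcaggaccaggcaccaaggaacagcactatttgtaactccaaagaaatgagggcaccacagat
Capitals mark the match to the ETS-IRF composite element known in dendritic cells and B cells, the letters GGAA and GAAA with 2 bases of any kind between them, which reads TTTCTCTTCC on the printed strand. The match begins 9 bases before the start in Cd209a, 70 in Cd209d and 85 in Cd209e. The motif was searched on both strands and was chosen after the sequences had been seen. It was in 892 of 32851 mouse promoters of the same length (2.72%), and not in those of Cd209b, Cd209c, Cd209f or Cd209g. The longest run that the printed promoters share, TTTCTCTTCCTA, was in 9 of 32851 promoters (0.0274%). That run was taken from the printed promoters, which are therefore among the 9, so its share does not show how rarely such a run is shared. A match is a stretch of letters and was not tested as a binding site.

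Cd7, Ifitm1, Clec10a and Napsa were higher in the members than in each of the 6 comparison classes, in every library. Cd7, a surface protein best known from T and NK cells, was found at 317 CPM in Lag3KO_CD45 against 373 and 520.3 CPM in WT_CD45. T cells of the same libraries held 131 to 141 CPM, and cDC1, Fscn1 and Ccr7 positive dendritic cells, monocytes, C1q macrophages and B cells held at most 21.1 CPM. The 11 T cell markers that the rule did not use summed to 61.8 CPM in Lag3KO_CD45 members against 124.7 and 53.3 CPM in WT_CD45 members, where T cells held 6514 to 7256 CPM. The rule limited the other 3, Cd3d, Cd3e and Cd3g. A Cd7 UMI was present in 36.8% of Lag3KO_CD45 members against 49.5% and 55.0% of WT_CD45 members. After every cell was thinned to 2000 UMIs the shares were 22.1% in Lag3KO_CD45 against 28.0% and 37.5% in WT_CD45. In monocytes, where the gene should be rare, the unthinned share was 3.37% in Lag3KO_CD45 against 4.51% and 3.03% in WT_CD45, at median depths of 4846, 5976 and 5409 UMIs.

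Ifitm1, an interferon-induced membrane protein that blocks virus entry, was found at 5099 CPM in Lag3KO_CD45 against 5417 and 2786 CPM in WT_CD45. Monocytes held 251 to 656 CPM, and cDC1 held 574 to 1157 CPM. In all 3 classes the library labelled WT_CD45 2 was the lowest. Clec10a, the macrophage galactose-type lectin and a marker of cDC2, was at 626 CPM in Lag3KO_CD45 against 568 and 471 CPM in WT_CD45, and no comparison class exceeded 95.8 CPM. Its close relative Mgl2 was at 227 CPM in Lag3KO_CD45 against 136 and 41.0 CPM in WT_CD45, and the highest value in cDC1 or monocytes was 16.2 CPM, while Fscn1 and Ccr7 positive dendritic cells reached 63.4 CPM. Napsa, an aspartic protease of the endosome, was at 950.2 CPM in Lag3KO_CD45 against 814 and 811 CPM in WT_CD45. Klrd1 (CD94), a lectin-like receptor of NK cells, was at 67.0 CPM in Lag3KO_CD45 against 182 and 139 CPM in WT_CD45. The rule chose the cells, so these levels are a description and carry no test.

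**Figure D1:**
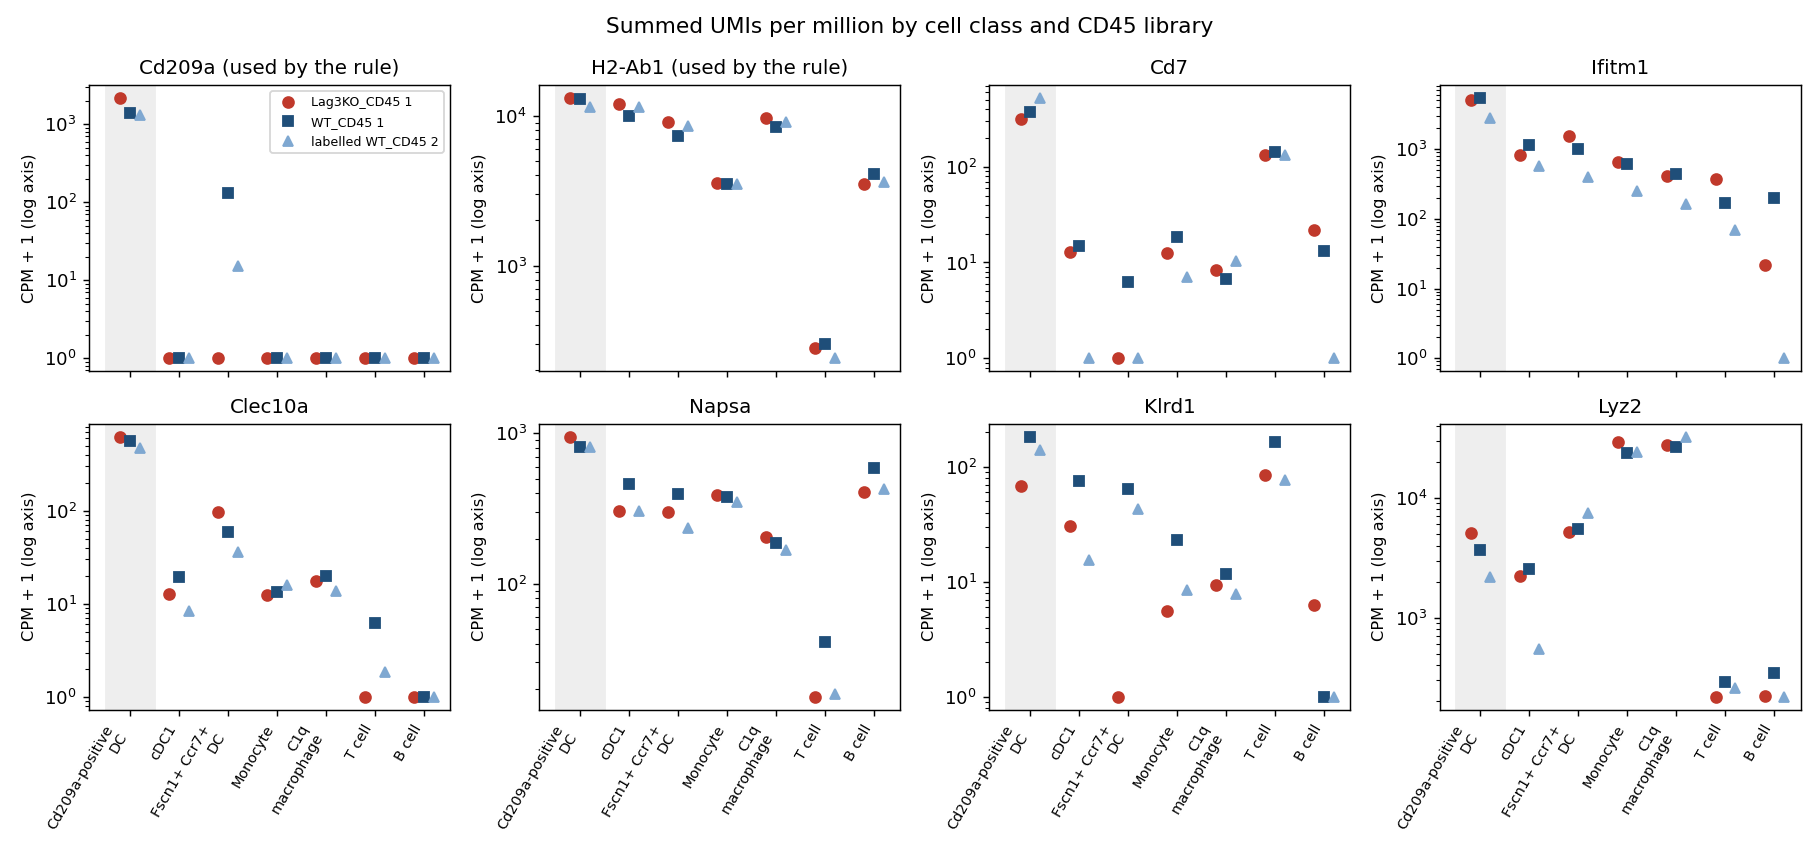
Levels of 8 genes in 7 cell classes (x axis) as CPM + 1 on a log axis, 1 point per CD45 library, with the Cd209a-positive dendritic cells shaded. Cd7 stood between 317 and 520.3 CPM in these cells and Clec10a between 471 and 625.8 CPM, while Lyz2 was lower than in monocytes and C1q macrophages of every library.

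The general dendritic cell genes were present. Irf4, Bcl11a and Sirpa were higher than in cDC1 in every library, and Irf8, Batf3 and Flt3 lower, while the Zbtb46 ranges overlapped. Flt3, the receptor for the growth factor of conventional dendritic cells, was at 69.5 CPM in Lag3KO_CD45 against 46.4 and 98.3 CPM in WT_CD45 members, and cDC1 held 115 to 135 CPM. Monocytes held at most 10.9 CPM. Zbtb46, a transcription factor of conventional dendritic cells, was at 23.2 CPM in Lag3KO_CD45 against 32.0 and 20.5 CPM in WT_CD45, and cDC1 held 18.4 to 29.3 CPM. Irf4, the factor most associated with cDC2, was at 33.5 CPM in Lag3KO_CD45 against 32.0 and 32.8 CPM in WT_CD45, whereas cDC1 held at most 4.61 CPM. Of the cDC1 factors, Irf8 was at 350.2 CPM in Lag3KO_CD45 against 230.2 and 249.9 CPM in WT_CD45 members and at 1088 to 1448 CPM in cDC1. Batf3 was at 77.3 CPM in Lag3KO_CD45 against 39.97 and 81.9 CPM in WT_CD45 members and at 263 to 341 CPM in cDC1. Bcl11a, a factor of dendritic cell and B cell development, was at 100.4 CPM in Lag3KO_CD45 against 94.3 and 111 CPM in WT_CD45, above the cDC1 range of 18.4 to 47.0 CPM. Sirpa, a receptor that marks cDC2 and monocytes, was at 97.9 CPM in Lag3KO_CD45 against 95.9 and 107 CPM in WT_CD45 members and at 7.31 to 36.9 CPM in cDC1.

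Without H2-Ab1, which the rule used, the other 16 genes of MHC class II processing summed to 57107 CPM in Lag3KO_CD45 against 60828 and 57649 CPM in WT_CD45. This was the highest of the 7 classes in each library. The rule asked for at least 20 H2-Ab1 UMIs and may thereby favour cells high in other genes of the list. The rank, and the level of each such gene, is therefore not independent of the rule. Fscn1 and Ccr7 positive dendritic cells held 48378 to 50933 CPM, C1q macrophages 48363 to 51807 CPM and cDC1 45976 to 50341 CPM. H2-Ab1 itself was at 13123 CPM in Lag3KO_CD45 against 12988 and 11484 CPM in WT_CD45. Its partner chain H2-Aa, which the rule did not use, was at 11480.0 CPM in Lag3KO_CD45 against 12262 and 11123 CPM in WT_CD45, and monocytes held 3341 to 3461 CPM. Cd74, the invariant chain that guides MHC class II to the endosome, was at 27273 CPM in Lag3KO_CD45 against 30276 and 28786 CPM in WT_CD45. H2-DMb1, a subunit of the peptide-loading chaperone, was at 1537 CPM in Lag3KO_CD45 against 1379.8 and 1311 CPM in WT_CD45 members, and Fscn1 and Ccr7 positive dendritic cells held 312 to 501 CPM. Of the co-stimulatory genes, Cd86 was at 183 CPM in Lag3KO_CD45 against 203 and 119 CPM in WT_CD45 and Cd40 at 173 CPM in Lag3KO_CD45 against 144 and 119 CPM in WT_CD45. Cd80 stayed at 19.2 to 23.2 CPM, and Cd70 and Tnfsf4 had no UMI in members.

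Of the receptors and chemokines, Ccr2, Ccl9 and Ifngr1 were higher in members than in cDC1 in every library. Ccr2, the receptor that brings monocytes and cDC2 into inflamed tissue, was at 422 CPM in Lag3KO_CD45 against 430.1 and 524 CPM in WT_CD45 members, beside 487 to 654 CPM in monocytes and 118 to 311 CPM in cDC1. Ccr7, which guides dendritic cells to lymph nodes, was at 5.15 CPM in Lag3KO_CD45 against 6.40 and 16.4 CPM in WT_CD45, where the Fscn1 and Ccr7 positive cells, chosen by that gene, held at least 1418 CPM. Of the chemokines, Ccl9 was at 755 CPM in Lag3KO_CD45 against 638 and 672 CPM in WT_CD45 members and at 35.3 to 125 CPM in cDC1. Il1b, a pro-inflammatory cytokine, was at 698 CPM in Lag3KO_CD45 against 668 and 373 CPM in WT_CD45, and the transcripts of Il12b, Il23a, Il6 and Il10 were at 0 to 4.80 CPM in each library. Csf2rb, the shared receptor chain for GM-CSF, a T cell cytokine needed for EAE, was at 255 CPM in Lag3KO_CD45 against 225 and 221 CPM in WT_CD45. Ifngr1, a chain of the interferon gamma receptor, was at 327 CPM in Lag3KO_CD45 against 323 and 377 CPM in WT_CD45 members and at 118 to 217 CPM in cDC1.

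Other genes with large ratios over all 3 libraries were Kmo, Ffar2 and Tspan13. Kmo, an enzyme of tryptophan breakdown, was at 183 CPM in Lag3KO_CD45 against 161 and 156 CPM in WT_CD45, with at most 10.97 CPM in monocytes. Ffar2, a receptor for short-chain fatty acids, was at 155 CPM in Lag3KO_CD45 against 119.9 and 127 CPM in WT_CD45, with at most 17.3 CPM in monocytes. Tspan13, a tetraspanin, was at 440.4 CPM in Lag3KO_CD45 against 390.1 and 377 CPM in WT_CD45, with at most 39.5 CPM in C1q macrophages. Over cDC1, the largest ratios after Clec10a and Cd7 were those of the membrane proteins Tmem176a, at 363 CPM in Lag3KO_CD45 against 342 and 393 CPM in WT_CD45 members, and Tmem176b, at 633 CPM in Lag3KO_CD45 against 548 and 569 CPM in WT_CD45. The calcium-binding protein S100a4 was at 1736 CPM in Lag3KO_CD45 against 1533 and 2049 CPM in WT_CD45 members, and cDC1 held at most 179.8 CPM. The genes whose levels were most like those of Cd209a over the 21 values of 7 classes and 3 libraries were Cd209e (Pearson r = 0.836), Cd209d (0.835) and Slc30a4, a zinc transporter (0.832). Cdh1 (E-cadherin), Bex6, Ggt5 and Clec10a followed with r of 0.823 to 0.794. All but 1 of the comparison classes were chosen to lack Cd209a, so these correlations restate the contrast of members with the rest.

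RNA of other cell types was low for most types and present for monocytes and macrophages. Monocyte genes summed to 12541 CPM in Lag3KO_CD45 against 11154 and 10197 CPM in WT_CD45 over 18 genes, all detected, where monocytes held 42433 to 47329 CPM. Ly6c2, the classical monocyte marker, was at 523 CPM in Lag3KO_CD45 against 486 and 639 CPM in WT_CD45 members and at 2693 to 3683 CPM in monocytes, which were chosen by it. Lyz2, the lysozyme of myeloid cells, was at 5039.6 CPM in Lag3KO_CD45 against 3701 and 2196 CPM in WT_CD45 members and at 23465 to 29182 CPM in monocytes. Macrophage genes other than C1qa, C1qb and C1qc, which the rule limited, summed to 2681 CPM in Lag3KO_CD45 against 2809 and 2032 CPM in WT_CD45 over 17 genes, where C1q macrophages held 29709 to 44345 CPM. The 15 cDC1 genes summed to 711 CPM in Lag3KO_CD45 against 528 and 438 CPM in WT_CD45, where cDC1 held 4418 to 4587 CPM, and the 10 B cell genes to 149 CPM in Lag3KO_CD45 against 166 and 172 CPM in WT_CD45, where B cells held 17288 to 20518 CPM. The defining cDC1 genes Xcr1 and Clec9a were at 0 by the rule, and of the other lists Sall1 and Slc2a5 (microglia), Pax5 (B cells), Prf1 (NK cells) and 4 of 5 erythroid genes were at 0. Of the genes the rule did not use, Flt3, Zbtb46, Irf4 and Clec10a bear on the label of dendritic cells, beside a measurable level of monocyte genes whose part in the results was not tested.

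The values near the thresholds showed how sharply the rule divided the cells. The 25 members with exactly 2 Cd209a UMIs held 329 CPM Clec10a, 196 CPM Cd7, 3671 CPM Ifitm1 and 594 CPM Ly6c2. The 58 barcodes with 1 Cd209a UMI that met every other limit held 269 CPM Clec10a, 166 CPM Cd7, 2666 CPM Ifitm1 and 1229 CPM Ly6c2. The 18 members with 20 to 29 H2-Ab1 UMIs held 1001 CPM Cd7 and 2335 CPM Cd209a, and the 19 barcodes with 10 to 19 held 1088 CPM Cd7 and 1454 CPM Cd209a. The Cd7 level was thus high on both sides of the H2-Ab1 limit. At the C1q limit only 5 barcodes lay on each side. After the Cd209a limit, the largest loss came from the T cell limit, which took 99 of 323 barcodes.

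The members were not uniform. Clustering them at a resolution of 0.5 gave 5 sub-clusters, with 3 at 0.3 and 5 at 0.8, and the leading genes below describe them without a test. Sub-cluster 1 (49 cells) led with Id2, a transcriptional inhibitor that dendritic cells need to develop, at 1281 CPM against 393 CPM in the other members. Cst3 (cystatin C), at 10049 against 4831 CPM, and Gpr183, an oxysterol receptor that positions dendritic cells, at 129 against 55.4 CPM, were also higher there. Ifitm1 was highest in this sub-cluster, at 7709.6 CPM.

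Sub-cluster 2 (48 cells) held more Ccl9, at 1279 against 515 CPM in the other members, and more Ccl6, at 733 against 293 CPM. The immediate early genes Fos and Nr4a1 were at 3151 against 1458 CPM and 132 against 38.6 CPM. Ccr2 was highest here, at 714 CPM.

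Sub-cluster 3 (48 cells) carried macrophage genes. Apoe, a lipid carrier, was at 2605 CPM against 405 CPM in the other members and Lyz2 at 7747 against 2167 CPM. Trem2, a lipid receptor of macrophages, was at 142 against 14.7 CPM, and Arg1 reached 375 CPM. These cells had the lowest Cd209a of the sub-clusters, 991 CPM, the lowest Cd7, 42.9 CPM, and the highest median depth, 7288 UMIs. Mgl2 was highest here, at 335 against 65.6 CPM. The barcode rich in S100a8 lay in this sub-cluster.

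Sub-cluster 4 (32 cells) carried interferon-induced genes. Cxcl10, a chemokine that attracts T cells through CXCR3, was at 4151 CPM against 306 CPM in the other members, and Cxcl9, its relative, at 1393 against 134 CPM. The antiviral genes Rsad2 and Isg15 were at 364 against 12.9 CPM and 1781 against 335 CPM. Ccl17, a ligand of CCR4, was at 1572 against 308 CPM, and Cd274 (PD-L1) at 162 against 22.1 CPM.

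Sub-cluster 5 (24 cells) had the highest Cd7 and the lowest Id2. Cd7 was at 1608 CPM against 234 CPM in the other members and was found in 95.8% against 39.5% of cells. Id2 was at 21.8 CPM. Fcgrt, the neonatal Fc receptor, was at 793 against 119.6 CPM and Bcl11a at 255 against 80.3 CPM. Cd209d, at 284 against 80.3 CPM, and Cd209e, at 160.1 against 36.6 CPM, were highest in these cells. Every sub-cluster held cells of all 3 libraries, and none drew more than 56.2% of its cells from 1 library. The libraries still differed in their shares, most of all for sub-cluster 5. It held 12 of the 68 Lag3KO_CD45 members, against 4 of 93 and 8 of 40 WT_CD45 members. The part of these shares in the genotype differences below was not tested.

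**Figure D2:**
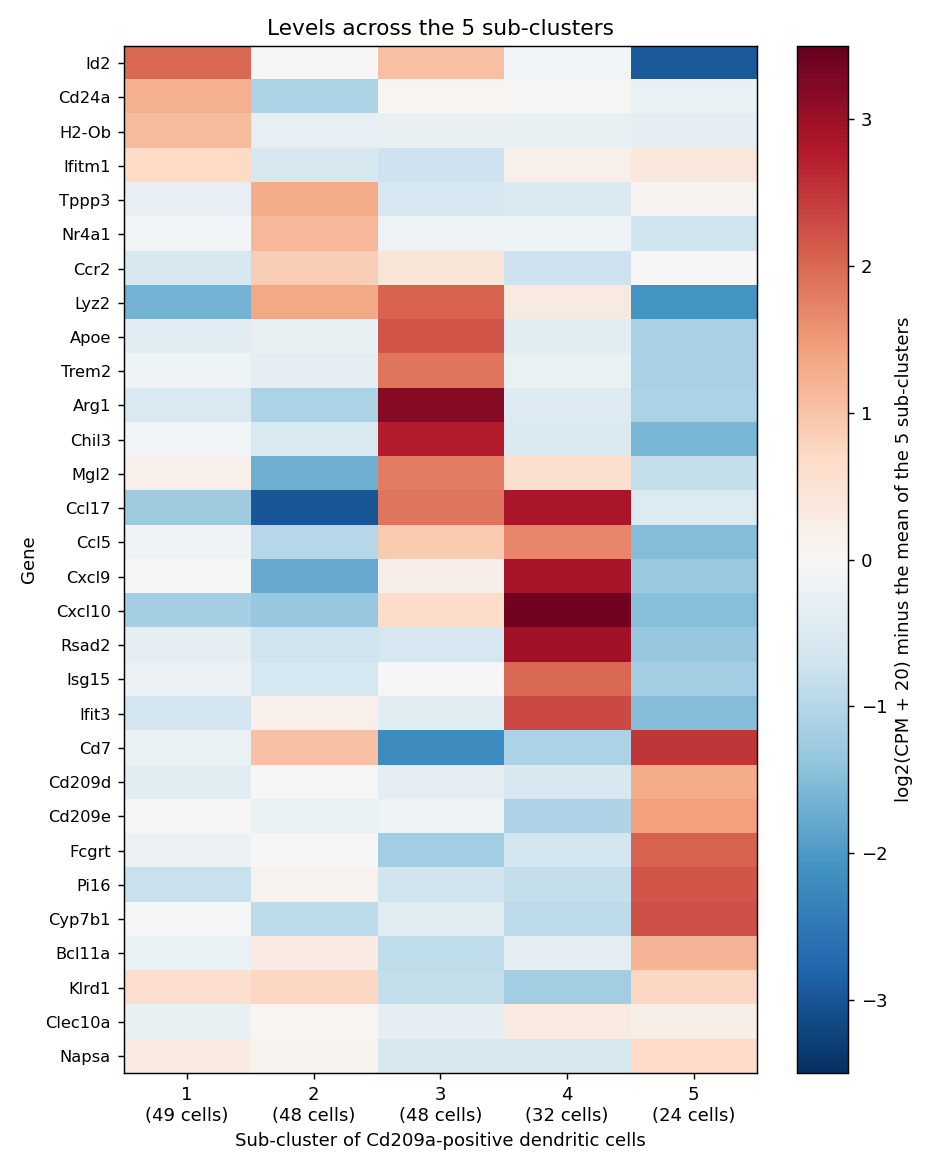
Heat map of 30 genes (rows) in the 5 sub-clusters (columns), coloured by log2(CPM + 20) minus the mean of the sub-clusters. Apoe, Trem2 and Arg1 stand out in sub-cluster 3, Cxcl10, Cxcl9 and Rsad2 in sub-cluster 4, and Cd7, Fcgrt and Pi16 in sub-cluster 5.

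The share of members did not separate the genotypes. It was 2.70% of kept barcodes in Lag3KO_CD45 (95% Clopper-Pearson interval 2.10 to 3.41), against 4.01% in WT_CD45 1 (3.24 to 4.88) and 1.79% in the library labelled WT_CD45 2 (1.28 to 2.43). Lag3KO_CD45 lay between the WT_CD45 libraries, whose mean was 2.90% ± 1.57 (SD, n = 2). The difference of -0.195 percentage points had an exact permutation p = 1 (two-sided, 3 arrangements, so that p cannot fall below 1 in 3), and without WT_CD45 1 it was 0.914 points. Among barcodes with at least 20 H2-Ab1 UMIs that met the T cell limit, members made up 8.08% (68 of 842) in Lag3KO_CD45 against 10.5% (93 of 887) and 5.13% (40 of 779) in WT_CD45. These intervals cover counting error only, and the share of a bead-enriched suspension is not a number of cells in the tissue.

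The genotype comparison of the members asked which genes differ in these cells under the Lag3KO label. By edgeR, cells with the Lag3KO label held more Chil3, Cxcl9, Cxcl10 and Serpina3g, and more transcripts of the lectins Cd209d, Cd209e, Clec4e and Mgl2. They held less Ccl5, Klrd1, Tmsb10 and Hspa1a. None of these lectins was called without the 2 doublet-like barcodes. Without WT_CD45 1 the log2 differences of Ccl5 and Hspa1a were -0.28 and -0.72. Tmsb10 was also lowest in Lag3KO_CD45 in the 6 other classes. On UMIs summed per library, edgeR called 57 of 4578 tested genes at an adjusted p of 0.05 (1.25%). Of these, 12 were higher in Lag3KO_CD45 (0.262%) and 45 were lower (0.983%). The single Lag3KO_CD45 library lay beyond both WT_CD45 libraries for 68.3% of all tested genes, above both for 37.9% and below both for 30.4%, so this position alone says little. The spread was estimated from the 2 WT_CD45 libraries. With infinite prior degrees of freedom edgeR gave each gene the trended value alone. A gene's own spread between these libraries thus did not enter its p-value. DESeq2 called 0 genes (21 at an unadjusted p under 0.05, where edgeR had 304). With stricter limits on other-cell RNA edgeR also called 0 (131 at an unadjusted p under 0.05). In that setting edgeR also weighed each gene's own spread (prior degrees of freedom 4.857).

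Among the genes higher in Lag3KO_CD45, interferon gamma-induced genes were the first group. Cxcl9 was at 525 CPM in Lag3KO_CD45 against 257 and 86.0 CPM in WT_CD45 (edgeR: log2 difference 1.45, SE 0.248, adjusted p = 2.92e-06). Cxcl10 was at 1195 CPM in Lag3KO_CD45 against 823 and 291 CPM in WT_CD45 (edgeR: log2 difference 1.00, SE 0.202, adjusted p = 0.000274). Serpina3g, a serine protease inhibitor induced by interferon gamma, was at 381 CPM in Lag3KO_CD45 against 161 and 135 CPM in WT_CD45 (edgeR: log2 difference 1.28, SE 0.261, adjusted p = 0.000315). For all of them Lag3KO_CD45 was highest and WT_CD45 1 second. Without WT_CD45 1 the Cxcl9 difference was 2.52 and the Cxcl10 difference 1.99, and without the library labelled WT_CD45 2 they were 0.94 and 0.46. In Lag3KO_CD45, 55.9% of the Cxcl9 UMIs came from 5 of the 68 cells.

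Of the 29 genes of the interferon gamma list, 22 were tested, of which 18 had a positive difference and 3 were called, all higher. Of all 4578 tested genes 48.0% had a positive difference and 0.262% were called higher. Their median log2 difference was 0.34, where the median of all tested genes was -0.02, and the median gap of WT_CD45 1 over the library labelled WT_CD45 2 was 0.50 in the same genes. Members of the list that were not called included Psmb8, an immunoproteasome subunit, at 1447 CPM in Lag3KO_CD45 against 1073 and 1094 CPM in WT_CD45, Socs3, a feedback inhibitor of cytokine signalling, at 476 CPM in Lag3KO_CD45 against 374 and 159.8 CPM in WT_CD45, and Irf1 at 288 CPM in Lag3KO_CD45 against 249 and 172 CPM in WT_CD45. The type I interferon list differed in sign: of 33 tested genes 26 had a negative difference, against 2380 of all 4578 tested genes, and 1 gene was called, lower. The median was -0.22, with -0.09 when WT_CD45 1 was left out and -0.28 without the library labelled WT_CD45 2. The summed level of the list, 13133 CPM in Lag3KO_CD45 against 14077 and 12299 CPM in WT_CD45, lay between the WT_CD45 libraries. That gene was Rsad2, an antiviral enzyme, at 25.8 CPM in Lag3KO_CD45 against 83.1 and 61.5 CPM in WT_CD45 (edgeR: log2 difference -1.60, SE 0.453, adjusted p = 0.0354). Rsad2 was not called without the doublet-like barcodes, with no filter on low counts or with a limit of 3 Cd209a UMIs. Isg15 was at 435 CPM in Lag3KO_CD45 against 588 and 549 CPM in WT_CD45 and was not called. Whether the medians of both lists differ from each other was not tested.

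Lectins were the second group higher in Lag3KO_CD45. Clec4e (Mincle), a receptor for glycolipids, was at 111 CPM in Lag3KO_CD45 against 27.2 and 16.4 CPM in WT_CD45 (edgeR: log2 difference 2.14, SE 0.405, adjusted p = 5.56e-05). Cd209e was at 100.4 CPM in Lag3KO_CD45 against 36.8 and 4.10 CPM in WT_CD45 (edgeR: log2 difference 1.85, SE 0.408, adjusted p = 0.00144). Cd209d was at 180.3 CPM in Lag3KO_CD45 against 83.1 and 28.7 CPM in WT_CD45 (edgeR: log2 difference 1.44, SE 0.322, adjusted p = 0.00169). Mgl2 was at 227 CPM in Lag3KO_CD45 against 136 and 41.0 CPM in WT_CD45 (edgeR: log2 difference 1.12, SE 0.287, adjusted p = 0.0106). Lag3KO_CD45 was highest for each. Of the 28 lectins and pattern receptors 17 were tested, 4 were called higher and 0 lower, where 0.262% of all tested genes were called higher. Their median was 0.07, with 0.39 when WT_CD45 1 was left out and -0.06 without the library labelled WT_CD45 2. Clec10a was not called, with 626 CPM in Lag3KO_CD45 against 568 and 471 CPM in WT_CD45, nor was the pattern receptor Cd14, with 95.3 CPM in Lag3KO_CD45 against 139 and 69.6 CPM in WT_CD45. Cd209a chose the cells and was not tested.

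These lectin calls rest on few cells. In Lag3KO_CD45, 5 cells held 35 of the 39 Cd209e UMIs, 47 of the 70 Cd209d UMIs and 63 of the 88 Mgl2 UMIs. Without the 2 doublet-like barcodes Clec4e, Cd209d, Cd209e and Mgl2 were no longer called, with log2 differences of 1.504, 1.06, 1.36 and 0.87. Without WT_CD45 1 the differences of Cd209e, Cd209d and Mgl2 were 3.53, 2.44 and 2.31, and without the library labelled WT_CD45 2 they were 1.27, 1.00 and 0.64. With a limit of 3 Cd209a UMIs Mgl2 was not called.

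Monocyte genes were the third group. Chil3 (Ym1), a chitinase-like protein of monocytes and alternatively activated macrophages, was at 276 CPM in Lag3KO_CD45 against 79.9 and 41.0 CPM in WT_CD45 (edgeR: log2 difference 2.00, SE 0.295, adjusted p = 1.06e-08). Lyz2 was at 5039.6 CPM in Lag3KO_CD45 against 3701 and 2196 CPM in WT_CD45 (edgeR: log2 difference 0.71, SE 0.131, adjusted p = 2.80e-05). Both were highest in Lag3KO_CD45, and 79.4% of its Chil3 UMIs came from 5 cells. Under the stricter limits on other-cell RNA, where 0 genes were called, the Chil3 difference was 0.96, that of Clec4e 1.28 and that of Lyz2 0.69. The interferon gamma-induced genes moved either way there, Cxcl10 to 1.53 and Cxcl9 to 1.02. The Chil3 difference was 2.58 without WT_CD45 1 and 1.65 without the library labelled WT_CD45 2, and the Lyz2 difference was 1.17 without WT_CD45 1 and 0.37 without the library labelled WT_CD45 2. Of 18 monocyte genes 13 were tested, 3 were called higher (Chil3, Clec4e and Lyz2) and 0 lower, and the median was 0.09. Of all tested genes 0.262% were called higher, and Clec4e is also counted among the lectins above. Plac8 and Ccr2, also in the list, were not called, Ccr2 with 422 CPM in Lag3KO_CD45 against 430.1 and 524 CPM in WT_CD45. The summed monocyte list of the members was 12541 CPM in Lag3KO_CD45 against 11154 and 10197 CPM in WT_CD45, highest in Lag3KO_CD45, and its part in these differences was not tested.

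The remaining higher genes were Jund, Ninj1 and AA467197. Jund, a subunit of the AP-1 transcription factor, was at 239 CPM in Lag3KO_CD45 against 115 and 53.3 CPM in WT_CD45 (edgeR: log2 difference 1.32, SE 0.288, adjusted p = 0.00118). It was the 1 called gene of the 17 tested immediate early genes, where 0.262% of all tested genes were called higher. Ninj1, a membrane protein that ruptures the plasma membrane of dying cells, was at 180.3 CPM in Lag3KO_CD45 against 97.5 and 28.7 CPM in WT_CD45 (edgeR: log2 difference 1.25, SE 0.317, adjusted p = 0.00946). AA467197 was at 1949 CPM in Lag3KO_CD45 against 1591 and 746 CPM in WT_CD45 (edgeR: log2 difference 0.66, SE 0.170, adjusted p = 0.0115). Without WT_CD45 1 the differences of Jund, Ninj1 and AA467197 were 2.04, 2.44 and 1.35, and without the library labelled WT_CD45 2 they were 0.95, 0.78 and 0.22. Ninj1 was not called without the doublet-like barcodes, and neither Ninj1 nor AA467197 with a limit of 3 Cd209a UMIs. Of the 12 higher genes, 10 were among the 20 leading genes of a sub-cluster. They were Chil3, Clec4e, Lyz2 and Mgl2 of sub-cluster 3, Cxcl9, Cxcl10, Serpina3g and AA467197 of sub-cluster 4, and Cd209d and Cd209e of sub-cluster 5. Of the 45 lower genes, 4 were among them: Hspa1a, Rsad2, S100a8 and S100a9. The leading genes came from the same cells as the calls, and their share of all tested genes was not counted.

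Among the genes lower in Lag3KO_CD45, Ccl5, a chemokine for T cells and monocytes, was at 249.8 CPM in Lag3KO_CD45 against 829.8 and 299 CPM in WT_CD45 (edgeR: log2 difference -1.28, SE 0.251, adjusted p = 0.000126). WT_CD45 1 was the highest, and without it the difference was -0.28. Klrd1 was at 67.0 CPM in Lag3KO_CD45 against 182 and 139 CPM in WT_CD45 (edgeR: log2 difference -1.35, SE 0.339, adjusted p = 0.00889), and a Klrd1 UMI was found in 22.1% of Lag3KO_CD45 members against 38.7% and 40% of WT_CD45 members. Klrd1 was not called with a limit of 3 Cd209a UMIs, and neither Klrd1 nor Tmsb10 nor Malat1 was called with no filter on low counts. Nkg7, a granule protein of cytotoxic cells, had 1 UMI in Lag3KO_CD45 against 38 and 4 in WT_CD45 (edgeR: adjusted p = 0.00555). The 9 NK cell markers summed to 12.9 CPM in Lag3KO_CD45 members against 124.7 and 28.7 CPM in WT_CD45 members, with Prf1 at 0, and their part in the Nkg7 and Klrd1 differences was not tested. Tmsb10, an actin-binding thymosin, was at 2163 CPM in Lag3KO_CD45 against 3276 and 3183 CPM in WT_CD45 (edgeR: log2 difference -0.63, SE 0.147, adjusted p = 0.00326), and Lag3KO_CD45 was also the lowest library in the 6 other classes. Malat1, a nuclear noncoding RNA, was at 6497 CPM in Lag3KO_CD45 against 7897 and 9362 CPM in WT_CD45 (edgeR: log2 difference -0.46, SE 0.110, adjusted p = 0.00468), again with Lag3KO_CD45 lowest in every class.

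Heat shock and ribosomal protein genes made up much of the rest. Hspa1a, an inducible heat shock protein, was at 36.1 CPM in Lag3KO_CD45 against 369 and 61.5 CPM in WT_CD45 (edgeR: log2 difference -2.77, SE 0.359, adjusted p = 1.25e-11). WT_CD45 1 stood alone at the top, and without it the difference was -0.72. Dnaja1, a co-chaperone, was at 131 CPM in Lag3KO_CD45 against 312 and 311 CPM in WT_CD45 (edgeR: log2 difference -1.30, SE 0.290, adjusted p = 0.00169), with both WT_CD45 libraries above Lag3KO_CD45. Of 11 tested heat shock genes 9 had a negative difference, 2 were called lower, and the median was -0.33. The summed level of the 16 heat shock genes was lowest in Lag3KO_CD45 in the members and in all 6 other classes, with 4908 CPM in Lag3KO_CD45 members against 6440.3 and 6354 CPM in WT_CD45 members and 4605 CPM in Lag3KO_CD45 monocytes against 5253 and 5666 CPM in WT_CD45 monocytes. Hspa1a and Dnaja1 were each lowest in Lag3KO_CD45 in 5 of these 6 classes. Of 81 tested cytosolic ribosomal protein genes, 76 had a negative difference, 10 were called lower and 0 higher, and the median was -0.17. Of all 4578 tested genes 2380 had a negative difference and 0.983% were called lower. Ribosomal protein transcripts made up 24.1% of the members' UMIs in Lag3KO_CD45 against 25.7% and 26.9% in WT_CD45. Of the 45 lower genes, 25 had Rpl, Rps or Gm symbols, a count not made over all tested genes. Of the 27 tested genes annotated as pseudogenes, 8 were called lower. Reads of such genes can be split between near-identical copies, so their single values are uncertain. Examples are Gm9843 at 1321 CPM in Lag3KO_CD45 against 2470.3 and 1942 CPM in WT_CD45 and Rps27rt at 906 CPM in Lag3KO_CD45 against 1265 and 1769.9 CPM in WT_CD45. Of the 45, 17 were lower than both WT_CD45 libraries in all 6 other classes as well, against 0 of the 12 higher genes on their side. Cxcl10 and Serpina3g were each above both in 4 of these classes. The same count over all tested genes was not made. Rpl35, at 361 CPM in Lag3KO_CD45 against 1006 and 393 CPM in WT_CD45, had a difference of -0.15 without WT_CD45 1.

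The largest differences rested mostly on 1 barcode. S100a9 was at 7.73 CPM in Lag3KO_CD45 against 1047 and 24.6 CPM in WT_CD45, Lcn2 at 2.58 CPM in Lag3KO_CD45 against 117 and 4.10 CPM in WT_CD45 and Ngp at 0 CPM in Lag3KO_CD45 against 312 and 4.10 CPM in WT_CD45, and S100a8, Camp, Wfdc21 and Ltf were called lower as well. All are granule or secreted proteins of neutrophils, and the 9 neutrophil markers summed to 61.8 CPM in Lag3KO_CD45 against 3717 and 73.7 CPM in WT_CD45. The barcode of WT_CD45 1 named above held 10821 UMIs, 10 of Cd209a, 72 of H2-Ab1 and 1076 of S100a8. Without it S100a8 was not called, Camp, Ngp, Lcn2, Wfdc21 and Ltf were too low to be tested, and S100a9 was still called lower with a log2 difference of -2.83, against -6.21 with it. Without WT_CD45 1 the S100a9 difference was -1.25. The count over all genes was then 53, of which 51 were among the 57.

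**Figure D3:**
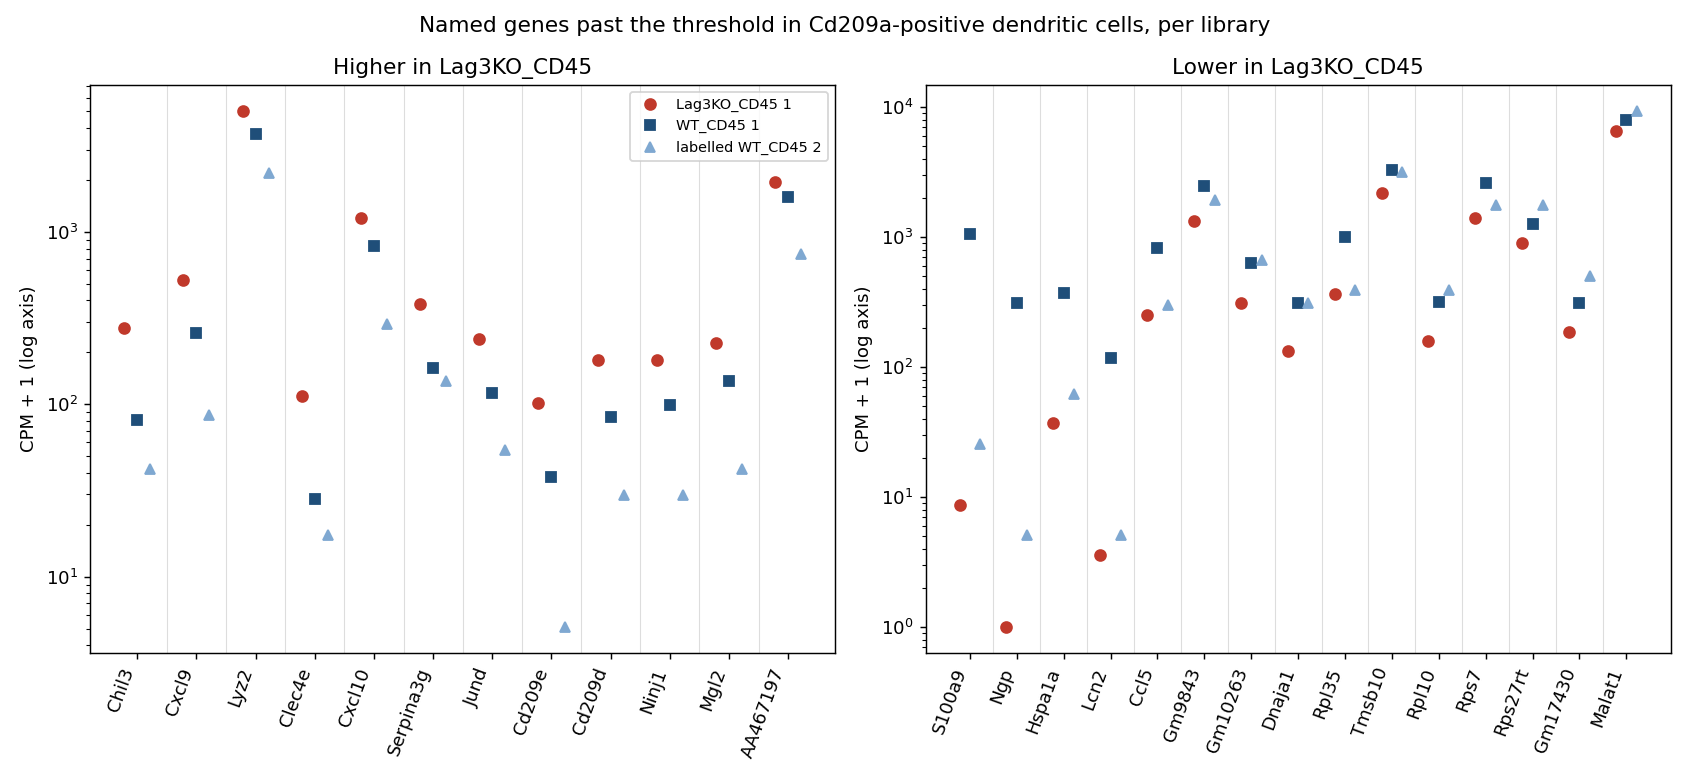
Levels of the named genes past the edgeR threshold in the members, as CPM + 1 on a log axis, 1 point per library, with genes higher in Lag3KO_CD45 on the left panel and genes lower on the right. On the left the order is Lag3KO_CD45, WT_CD45 1 and the library labelled WT_CD45 2 for all 12 genes, and on the right S100a9, Ngp, Lcn2 and Hspa1a have 1 high library.

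Most gene groups of antigen presentation showed no called gene. Of all 4578 tested genes only 1.25% were called, so 0 calls in a short list say little. Of 15 tested genes of MHC class II processing 0 were called by edgeR, and their median was 0.04. Cd74 was at 27273 CPM in Lag3KO_CD45 against 30276 and 28786 CPM in WT_CD45, with a log2 difference of -0.17 (SE 0.0756) that was not called. Ciita, the master regulator of MHC class II genes, was at 124 CPM in Lag3KO_CD45 against 83.1 and 139 CPM in WT_CD45. Of 14 co-stimulatory and checkpoint ligands 0 were called, with a median of 0.09, and Cd274 was at 41.2 CPM in Lag3KO_CD45 against 51.2 and 16.4 CPM in WT_CD45. Of 25 tested dendritic cell transcription factors 0 were called, with a median of -0.01, Irf4 showing 33.5 CPM in Lag3KO_CD45 against 32.0 and 32.8 CPM in WT_CD45 and Spi1 (PU.1) 731 CPM in Lag3KO_CD45 against 745 and 733 CPM in WT_CD45. None of 20 cytokine receptors, 14 MHC class I processing genes, 7 cytokines or 6 chemokine receptors was called. A gene that was not called is not thereby shown to be alike in both genotypes, since 1 library was set against 2.

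Among the 12 tested chemokines 2 were called higher (Cxcl9 and Cxcl10) and 1 lower (Ccl5). Of all tested genes 0.262% were called higher and 0.983% lower. The chemokine median was 0.00, with 0.92 when WT_CD45 1 was left out and -0.23 without the library labelled WT_CD45 2. Ccl17 was at 363 CPM in Lag3KO_CD45 against 704 and 102 CPM in WT_CD45 and was not called, with Lag3KO_CD45 between the WT_CD45 libraries. Of the 25 genes that mark these cells, 23 were tested, 1 was called higher (Mgl2) and 1 lower (Klrd1), with a median of 0.03. Cd7 and Ifitm1 were not called. Cd7 had a log2 difference of -0.53 (SE 0.249) and lay below both WT_CD45 libraries, and Ifitm1 one of 0.25 (SE 0.125) and lay between them.

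**Figure D4:**
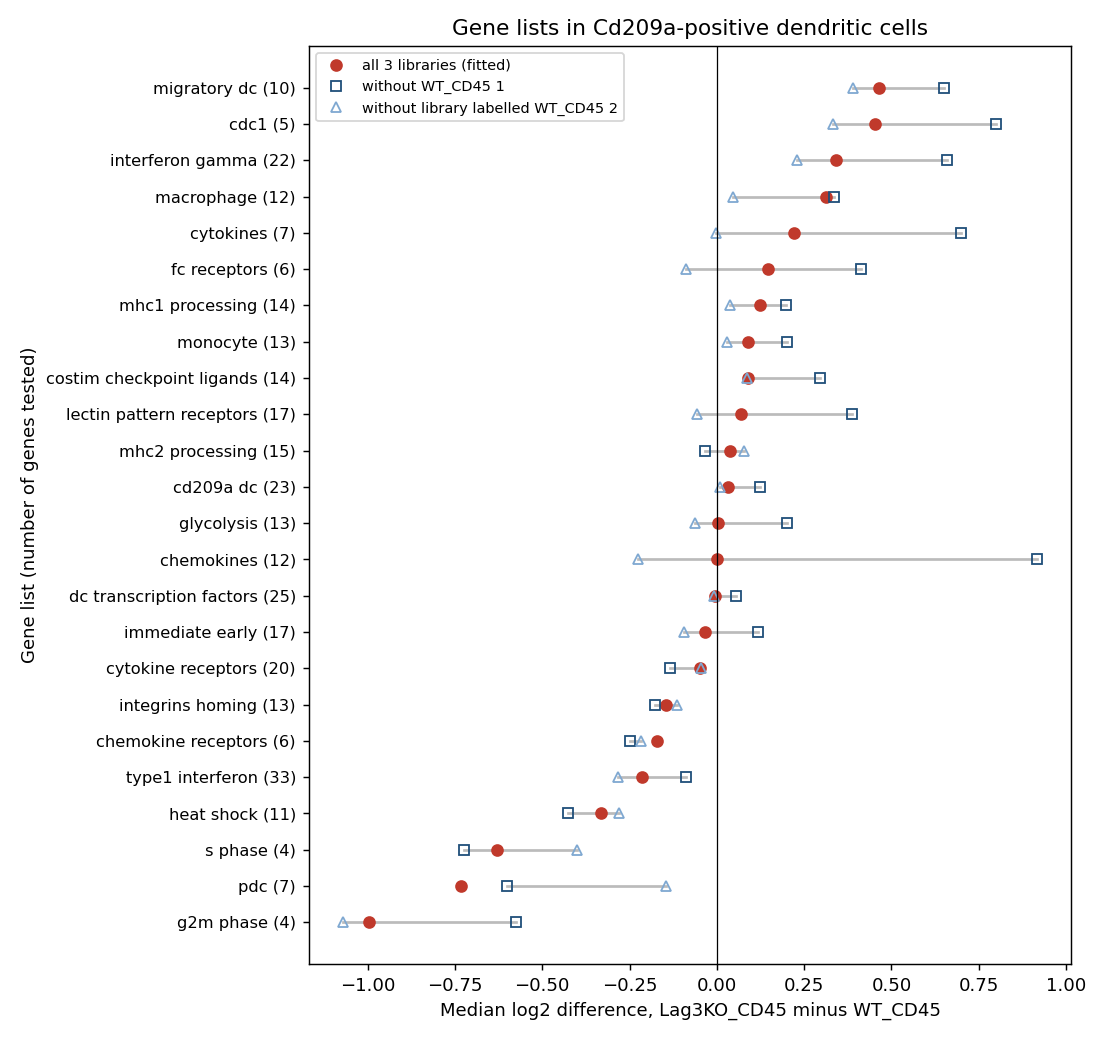
Median log2 difference, Lag3KO_CD45 minus WT_CD45, of each gene list in the members (rows, with the number of genes tested), from all 3 libraries (red) and with 1 WT_CD45 library left out (open symbols). The interferon gamma list lies at 0.34, between 0.23 and 0.66, the type I interferon list at -0.22, between -0.28 and -0.09, and the chemokine list between -0.23 and 0.92.

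To ask whether the genotype differences were those of the members rather than of all myeloid cells, the difference in members was compared with that in monocytes and in cDC1 by an interaction term. It differed from monocytes for 26 of 8048 genes by edgeR (0.323%) and from cDC1 for 11 of 4044 (0.272%), where DESeq2 called 0 in both (18 and 9 at an unadjusted p under 0.05, against 379 and 157 by edgeR). Cxcl9 was at 525 CPM in Lag3KO_CD45 against 257 and 86.0 CPM in WT_CD45 members and at 537 CPM in Lag3KO_CD45 against 464 and 545 CPM in WT_CD45 monocytes, a difference of effects of 1.33 (SE 0.209, edgeR adjusted p = 1.72e-07). Cxcl10 was at 1059.5 CPM in Lag3KO_CD45 against 989.8 and 725 CPM in WT_CD45 monocytes, a difference of effects of 0.81 (SE 0.155, edgeR adjusted p = 0.000113). Serpina3g was at 133 CPM in Lag3KO_CD45 against 128 and 141 CPM in WT_CD45 monocytes, a difference of effects of 1.32 (SE 0.277, edgeR adjusted p = 0.000965). For Cxcl9 and Serpina3g, Lag3KO_CD45 lay between the WT_CD45 libraries in monocytes and above both in members. Lag3KO_CD45 also lay above both in other classes, some of them small. The Fscn1 and Ccr7 positive dendritic cells numbered 13 in Lag3KO_CD45 against 27 and 18 in WT_CD45, and cDC1 22 against 22 and 30. In the Fscn1 and Ccr7 positive dendritic cells Cxcl9 was at 1044 CPM in Lag3KO_CD45 against 418 and 727 CPM in WT_CD45. Serpina3g was at 297 CPM in Lag3KO_CD45 against 143 and 155 CPM in WT_CD45 there. In cDC1 Serpina3g was at 282 CPM in Lag3KO_CD45 against 208 and 91.4 CPM in WT_CD45. In C1q macrophages Cxcl9 was at 377 CPM in Lag3KO_CD45 against 351 and 318 CPM in WT_CD45. Cxcl10 was highest in Lag3KO_CD45 in monocytes, cDC1, C1q macrophages and the Fscn1 and Ccr7 positive cells, but not in T or B cells. In cDC1 Cxcl10 was at 176 CPM in Lag3KO_CD45 against 50.7 and 150 CPM in WT_CD45. Chil3, used to choose the monocytes, differed from both classes, by 1.47 (SE 0.172) from monocytes and 2.26 (SE 0.510) from cDC1. Ccl5 differed from both as well, at 412 CPM in Lag3KO_CD45 against 359.7 and 154 CPM in WT_CD45 cDC1, by -0.75 (SE 0.175) from monocytes and -1.79 (SE 0.382) from cDC1. Cd209d and Cd209e stayed at or under 4.61 CPM in both classes.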

How the data were processed

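UMI counts per gene and barcode were deposited by the authors as 10x matrices for 3 CD45 and 4 CD4 libraries of CNS cells, prepared with a 10x 3′ v2 kit per the labels' protocols. Cell Ranger, Seurat and the GRCm38 (mm10) build are named per the submitters' processing notes, and how the deposited barcodes were chosen is not given there. Barcodes with at least 200 genes and at most 10% mitochondrial UMIs were kept, doublet-like ones included. The members and gene lists were chosen with earlier results of these data known, and some lists were taken over from that work.

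UMIs were summed per library and class, and genes that passed edgeR's filter on low counts were tested with its quasi-likelihood test and TMM scaling (edgeR 4.0.16, limma 3.58.1, R 4.3.3), with Benjamini-Hochberg adjustment over all tested genes and a threshold of 0.05. SE is the size of the log2 difference divided by the root of F. Genes used by the rule were not tested. The genes named were the 15 of smallest p in each direction among those called and beyond both WT_CD45 libraries (12 existed on the higher side), the called members of each gene list with up to 3 others of high level, and the 10 of largest ratio over each class. Ciita, Irf4, Cd274, Ccl17, Wfdc21, Ltf and the genes of the sub-clusters were picked after their values were seen. Effects in members and in monocytes or cDC1 were compared by an interaction term beside a library term. Sub-clusters came from 1000 variable genes, 15 principal components and 15 neighbours (Python 3.11.15, scanpy 1.11.5). Each script's test was tried on simulated counts with 200 changed genes.

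The CD45 libraries held 16050069 to 18940186 UMIs. The labels do not say that libraries came from separate mice, so the spread between libraries may be technical. In the main edgeR fits p-values used the trend of this spread over genes, not a gene's own spread. Replicate numbers followed accession order and pair nothing. Alternatives were DESeq2 1.42.0, RLE scaling, no filter, other limits of the rule, and leaving out each WT_CD45 library. Leaving out the barcode rich in neutrophil RNA and estimating the spread robustly were added after seeing the data.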

Additional observations from a re-analysis of the deposited data

Results flagged for a closer look

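The effect of the Lag3KO label, Lag3KO_CD45 minus WT_CD45, differed between the members and monocytes by edgeR's interaction test for 14 of the genes described above. Members had the more positive effect for Clec4e, by 2.23 on the log2 scale (SE 0.406), Chil3 by 1.47, Cxcl9 by 1.33, Serpina3g by 1.32, AA467197 by 0.98 (SE 0.130), Cxcl10 by 0.81 and Lyz2 by 0.51 (SE 0.0620). Chil3 was used to choose the monocytes. AA467197 was at 1949 CPM in Lag3KO_CD45 members against 1591 and 746 CPM in WT_CD45 members, and at 1411 CPM in Lag3KO_CD45 monocytes against 2432 and 966 CPM in WT_CD45 monocytes. Members had the more negative effect for Ccl5, by -0.75, and for Nkg7, by -4.47 (SE 0.946), which rests on 1 UMI in Lag3KO_CD45 members against 38 and 4 in WT_CD45 members.

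The other differences from monocytes were those of neutrophil genes. Ngp differed by -9.73, with 0 UMIs in Lag3KO_CD45 members so that the fitted size is no bound, S100a9 by -5.98, Camp by -5.83, S100a8 by -4.38 and Lcn2 by -4.34. Without the 1 barcode of WT_CD45 1 that was rich in S100a8, Ngp, Camp, S100a8 and Lcn2 were not called, and S100a9 differed by -2.72.

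Against cDC1 the effect differed for S100a9 by -5.41, S100a8 by -4.27, Chil3 by 2.26 and Ccl5 by -1.79. Without that barcode neither S100a9 nor S100a8 was called, while Chil3 and Ccl5 were.

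In the libraries enriched for CD4-positive cells, which enter no comparison here, 11 of 6556 kept barcodes met the same limits: 2 and 2 in the Lag3KO_CD4 libraries and 4 and 3 in the WT_CD4 libraries. Of them 10 held an Ifitm1 UMI, 11 Napsa, 8 Clec10a, 6 Cd7 and 6 Klrd1, and 2 held Ly6c2.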

How the results depend on the processing

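The count of genes that differ by genotype was 57 by edgeR, 52 with RLE scaling, 32 with no filter on low counts, 45 with a limit of 3 Cd209a UMIs, 45 without doublet-like barcodes, and 0 by DESeq2 and under the stricter limits on other-cell RNA (21 and 131 at an unadjusted p under 0.05). The interaction counts were 26 against monocytes and 11 against cDC1, 0 and 0 by DESeq2 (18 and 9 at an unadjusted p under 0.05), and against cDC1 5 with a limit of 3 Cd209a UMIs and 6 without doublet-like barcodes. The cDC1 comparison under stricter limits could not be fitted, since a class fell under 20 cells. The cause of these changes was not tested. Of 32 named or listed genes, 32 stayed called in their direction with RLE scaling, 26 with no filter, 27 with 3 Cd209a UMIs and 26 without doublet-like barcodes.

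Leaving out 1 WT_CD45 library leaves 1 against 1 and no test, and 30 of the 32 genes then kept their direction without WT_CD45 1 and 32 without the library labelled WT_CD45 2. S100a8 turned to 0.17 without WT_CD45 1 (-5.62 without the library labelled WT_CD45 2), Camp to 0.61 (-5.94), Camp against monocytes to 0.038 (-4.83), and the share of members to 0.914 percentage points (-1.30). The Lag3KO side is 1 library, 68 cells and 388326 UMIs, so its own spread is unknown. Of 249 alternative medians over 25 lists, 7 moved by more than 1 SD of the WT_CD45 libraries. No paired analysis was possible because replicate numbers follow accession order and the groups share fewer than 2 of them.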

Other observations

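Several groups of genes not described above had no called gene in the genotype comparison of the members. With 1.25% of all tested genes called, this says little for short lists. Of 6 tested Fc receptor genes 5 had a positive log2 difference, with a median of 0.15, and Fcer1g, the shared signalling chain, was at 2882 CPM in Lag3KO_CD45 against 2598 and 2053 CPM in WT_CD45. Fcgrt was at 270.4 CPM in Lag3KO_CD45 against 134 and 221 CPM in WT_CD45, highest in Lag3KO_CD45. Of 13 integrin and homing genes 4 had a positive difference, with a median of -0.14. Itgb7, a chain of the gut-homing integrin, was at 237 CPM in Lag3KO_CD45 against 267 and 324 CPM in WT_CD45, lowest in Lag3KO_CD45. The 13 glycolysis genes had a median of 0.00.

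Of the 25 genes of the G2 and M phases only 4 were abundant enough to test, all with a negative difference and none called. Hmgb2, a chromatin protein that is high in dividing cells, was at 90.1 CPM in Lag3KO_CD45 against 214 and 135 CPM in WT_CD45, and Cks2 at 54.1 CPM in Lag3KO_CD45 against 70.4 and 86.0 CPM in WT_CD45. The summed level of the list was 177.7 CPM in Lag3KO_CD45 against 434.9 and 283 CPM in WT_CD45, and that of 20 genes of the S phase 162 CPM in Lag3KO_CD45 against 262 and 242 CPM in WT_CD45. Lag3KO_CD45 was the lowest library for both sums.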
